A study of Mus musculus with 8 samples.

Results

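The genes described here are 49 mouse genes of the cell division cycle: 8 G1 cyclins and their kinases, 6 members of the E2F and RB families, 13 genes of replication licensing and DNA synthesis, 6 genes of the G2/M cyclins, Cdk1 and their transcription factors, 13 mitotic kinase, spindle, kinetochore and chromosome proteins, and 3 CDK inhibitors. They were taken by symbol from a fixed list, matched to the Ensembl identifiers of the count table, and make up 49 of its 55401 identifiers. All 49 passed the filter on low counts, which kept 18882 genes. Polyadenylated RNA was sequenced from cell lines of epithelioid hemangioendothelioma, a rare tumour of vascular endothelium: EHE26 (n = 2 libraries), EHE17 (n = 3) and EHE6 (n = 3), all cultured mouse lines with no treatment named in the labels. Genotype, passage, clonality and whether libraries of a line came from separate cultures are not given in the sources used here, so p-values measure only the spread between these libraries. Replicate numbers are those of the sample titles. Gene spans are those of GENCODE M21 on GRCm38 (mm10), and their starts can differ from the RefSeq starts used for promoters.

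A cell commits to division in G1, when D-type cyclins with Cdk4 or Cdk6, and then E-type cyclins with Cdk2, phosphorylate the RB family proteins and release E2F transcription factors. E2F activates genes of DNA replication, while the genes of G2 and mitosis are switched on later through a promoter element called the cell cycle genes homology region (CHR) together with B-MYB (Mybl2), FoxM1 and NF-Y. CDK inhibitors of the INK4 class bind Cdk4 and Cdk6, and those of the CIP/KIP class bind cyclin-CDK complexes. In normal endothelium most cells are quiescent, and in culture or in a tumour part of the population cycles.

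Total counts were 44620965 to 96237665 per library, and replicate 3 was the shallowest library of both EHE17 and EHE6. The lowest count of any member in any library was 279 reads (E2f2 in EHE26 replicate 2), for which counting error alone is 5.99% of the value. Replicate 3 stood apart from replicates 1 and 2 in EHE17 and in EHE6: genes with a read numbered 20682 in EHE17 replicate 3 against 25177 and 24641 in its other libraries, and 20066 in EHE6 replicate 3 against 24462 and 24698. EHE26 had 20618 and 20258. The endothelial label was checked on 15 marker genes, none of which was at 0 in any library. Pecam1, an endothelial adhesion molecule, lay between 1179 and 1675 CPM (read counts scaled to the TMM-corrected library size). Cldn5, another of the 15, was far less even, at 7.95 and 0.526 CPM in EHE26 and 1.05 CPM in EHE6 replicate 3. It had 324 CPM in EHE17 replicate 3. Its replicates 1 and 2 held 279 and 770 CPM in EHE17 and 403 and 287 CPM in EHE6. Both EHE26 libraries lay below all EHE17 and EHE6 libraries numbered 1 and 2 for 13 of the 15 markers (28.3% of all genes). They lay above them for 0 (22.0%). The summed level of the 15 markers was 6523 and 5202 CPM in EHE26, 8399.7 CPM in EHE17 replicate 3 against 13493 and 15654 CPM in the other EHE17 libraries, and 3679 CPM in EHE6 replicate 3 against 15266 and 16862 CPM.

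Libraries of 1 line differed widely in these genes. In EHE17 and in EHE6, genes of replication, G2/M and mitosis were higher in replicate 3 than in replicates 1 and 2, while the D-type cyclins Ccnd2 and Ccnd3 were lower and Cdk4 and Cdk6 lay between the other libraries. Summed over the 13 mitotic genes, the level was 1660.2 CPM in EHE17 replicate 3 against 332 and 579 CPM, a 3.65-fold difference from their mean. In EHE6 the same sum was 2610.2 CPM in replicate 3 against 875 and 435 CPM, a 3.98-fold difference. EHE26, with 1545 and 1463 CPM, lay above replicates 1 and 2 of both lines and below both replicate 3 libraries. In bulk RNA a larger share of dividing cells and more mRNA per dividing cell cannot be told apart.

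**Figure D1:**
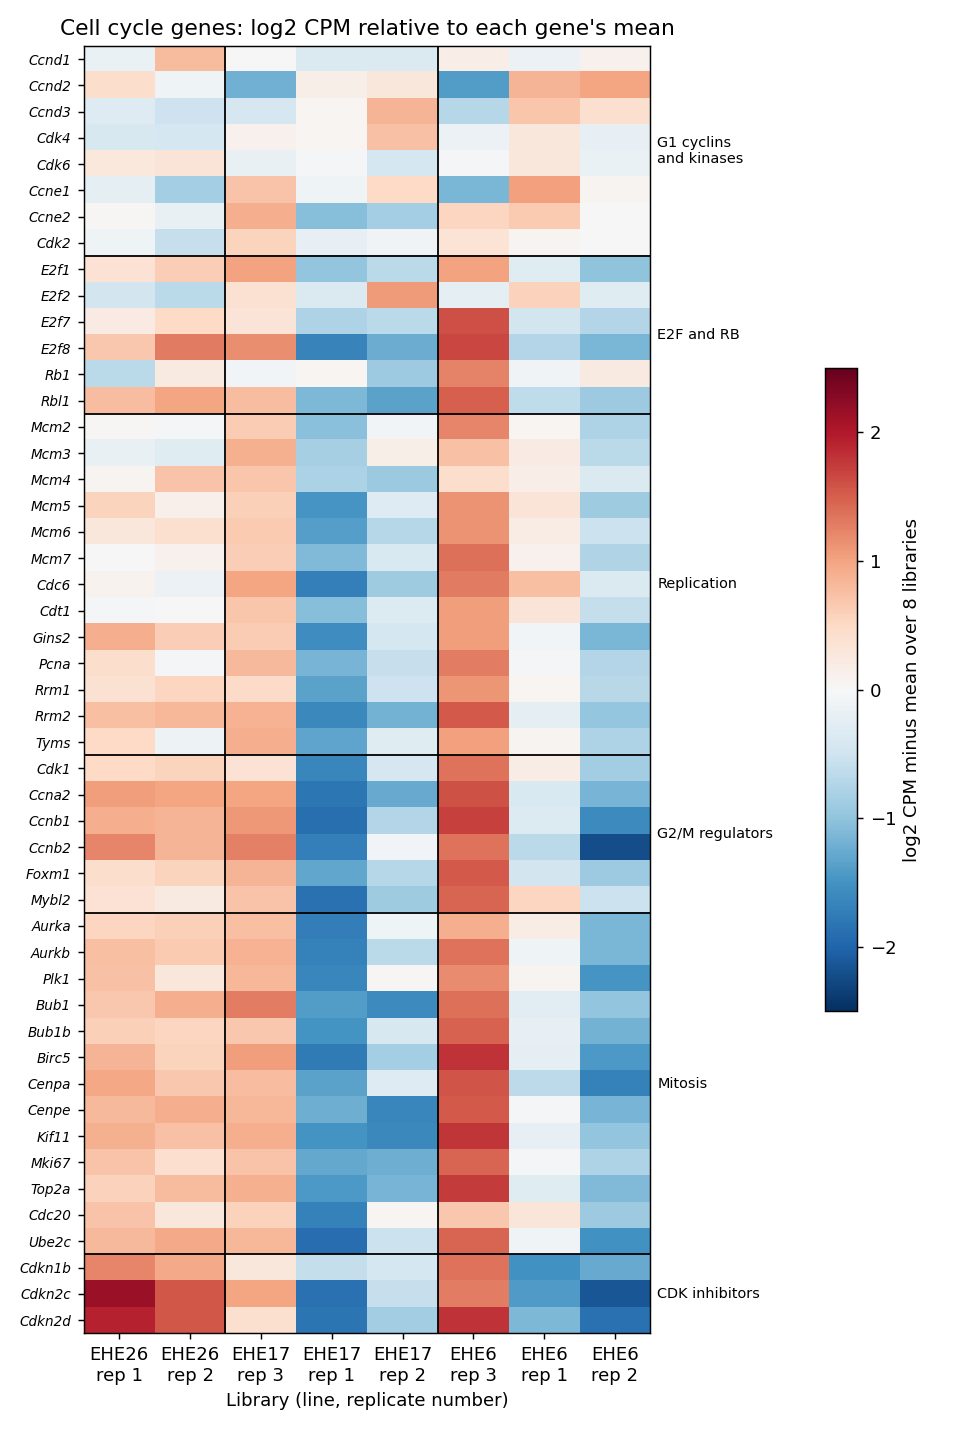
Heat map of the 49 members (rows, by role) in the 8 libraries (columns: EHE26, then EHE17, then EHE6, with replicate 3 left of replicates 1 and 2); colour is log2 CPM minus the gene's mean over all libraries. The replication, G2/M and mitotic rows are high in both replicate 3 libraries, and the Ccnd2 and Ccnd3 rows are low in both replicate 3 libraries.

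The difference between replicate 3 and the mean of replicates 1 and 2 was taken on log2 CPM with a prior count of 2. It is a description without a test, because it sets 1 library against 2 and these libraries were singled out with earlier results known. The member median was 1.67 in EHE17 and 1.67 in EHE6, against −0.11 and −0.13 over all tested genes. A difference of at least 1 in the higher direction was seen in 39 of 49 members in EHE17, where 9.94% of all tested genes had one, and in 37 of 49 in EHE6, where 14.8% did. It was seen in both lines for 35 members, against 4.96% of all genes. In the lower direction 1 member in EHE17 (21.2% of all genes) and 3 members in EHE6 (27.4%) passed the same size, and Ccnd2 did so in both. Replicate 3 lay above both other libraries for 43 members in EHE17 (30.4% of all genes) and for 42 in EHE6 (36.3%). It lay below both for 2 members in EHE17 (41.3%) and 3 in EHE6 (47.0%). Without a composition factor the median of all genes in EHE6 was −0.02, a shift of over 0.1 from −0.13, and 39 in place of 37 members passed a difference of 1.

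**Figure D2:**
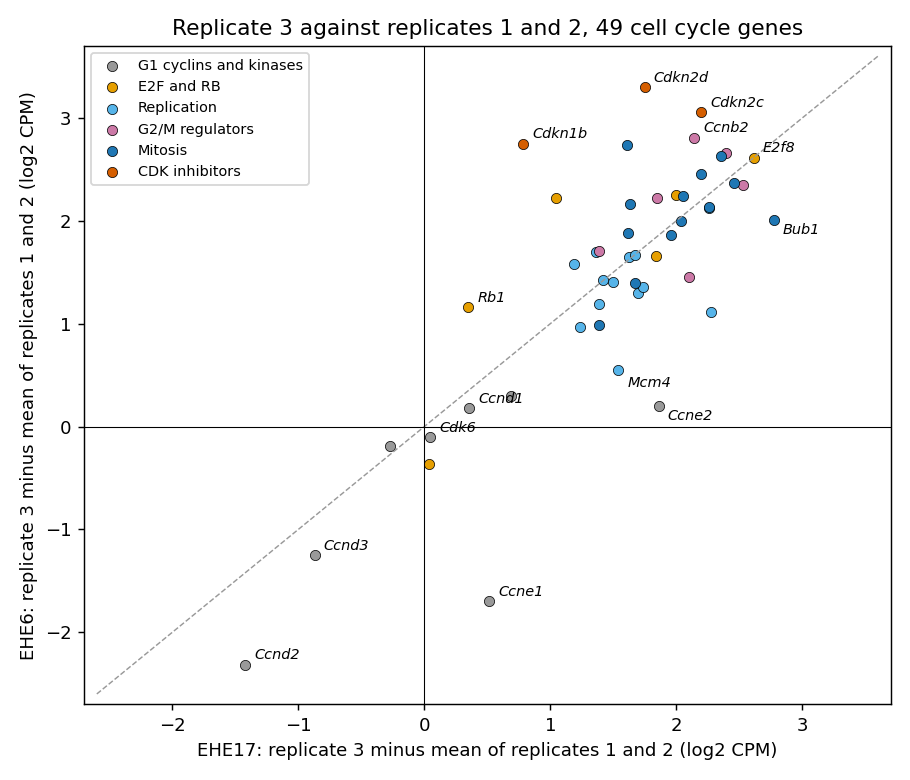
Each point is a member, placed by its log2 CPM difference of replicate 3 from the mean of replicates 1 and 2 in EHE17 and in EHE6 and coloured by role. Most replication, G2/M, mitotic and inhibitor genes lie above 1 on both axes, the G1 genes other than Ccne2 lie below 1 on both axes, and Ccne1 lies on opposite sides of 0 in the 2 lines.

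Replicates 1 and 2 also differed from each other. In EHE6, replicate 1 was above replicate 2 in 45 of 49 members (9030 of 18882 tested genes), with a median gap of 0.79 on the log2 scale. In EHE17, replicate 2 was above replicate 1 in 42 of 49 members (9242 of 18882 tested genes), with a median gap of 0.72 in size. Replicate 3 lay above both other libraries, with a difference larger than the gap between them, for 40 members in EHE17 and 40 in EHE6. The same held for 3947 of the 18882 tested genes in EHE17 and 5589 in EHE6. Plk1 in EHE17 and Cdc20 in both lines were mitotic genes for which the difference did not exceed the gap.

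Promoter sequences are shown for members of the mitotic, G2/M, replication and E2F groups, because the replication and the mitotic genes differ in the elements through which they are known to be controlled. RefSeq promoters (GRCm38.p6, 250 bases before to 50 after the start) were found for 40 of the 49 members. Each line below gives the 150 bases up to the base before the start, 5′ to 3′ on the gene's strand, with matches in capitals. Both strands were searched. A CHR word was TTTGAA, which reads TTCAAA when it lies on the other strand, or else the palindrome TTCGAA. The NF-Y word was CCAAT, which reads ATTGG when it lies on the other strand. An E2F word was either TTCCCGC or, as the other form of the site, TTGGCGC. The reversed NF-Y word can share 4 bases with the second form, as it does in E2f8.
Kif11 (chr19:37376232-37376381, plus strand): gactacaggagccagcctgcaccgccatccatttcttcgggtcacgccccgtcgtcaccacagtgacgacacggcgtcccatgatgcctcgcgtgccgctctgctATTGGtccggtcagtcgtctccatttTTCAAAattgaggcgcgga
Ube2c (chr2:164769779-164769928, plus strand): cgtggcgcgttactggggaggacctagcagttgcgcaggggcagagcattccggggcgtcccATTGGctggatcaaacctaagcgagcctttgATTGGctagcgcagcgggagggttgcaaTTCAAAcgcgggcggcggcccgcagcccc
Cdk1 (chr10:69352913-69353062, minus strand): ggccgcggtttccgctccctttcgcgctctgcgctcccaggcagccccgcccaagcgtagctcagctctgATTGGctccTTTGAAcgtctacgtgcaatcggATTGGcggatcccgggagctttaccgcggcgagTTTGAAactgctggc
Rrm1 (chr7:102441545-102441694, plus strand): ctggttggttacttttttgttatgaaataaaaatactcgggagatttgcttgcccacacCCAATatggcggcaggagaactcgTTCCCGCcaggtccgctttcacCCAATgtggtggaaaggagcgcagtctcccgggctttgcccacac
Mcm6 (chr1:128359706-128359855, minus strand): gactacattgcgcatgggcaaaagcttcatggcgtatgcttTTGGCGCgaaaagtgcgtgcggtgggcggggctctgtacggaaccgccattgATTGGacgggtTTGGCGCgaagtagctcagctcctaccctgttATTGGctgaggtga
E2f8 (chr7:48881597-48881746, minus strand): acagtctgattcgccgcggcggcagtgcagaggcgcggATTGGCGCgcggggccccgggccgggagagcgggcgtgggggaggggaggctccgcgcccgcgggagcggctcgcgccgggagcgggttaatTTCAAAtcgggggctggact
Kif11 (a spindle motor), Ube2c (a ubiquitin-conjugating enzyme of the anaphase-promoting complex) and Cdk1 hold CHR and NF-Y words in this stretch, Rrm1 and Mcm6 hold E2F and NF-Y words, and E2f8 holds all 3 kinds.

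A gene was counted if any of its promoters in the table held the word. A CHR word was present for 10 of the 12 mitotic genes (83.3%) and 2 of the 11 replication genes (18.2%), against 21.7% of the 27025 genes of the promoter table. An E2F word was present for 7 of 11 replication genes (63.6%) and 1 of 12 mitotic genes (8.33%), against 7.79% of the genes of that table. The NF-Y word was found for 30 of 40 members (75.0%) and 41.1% of the genes of that table. Each of the 16 members with a CHR word also had an NF-Y word, and 8.61% of the genes of that table had a promoter with both. None of the 5 G1 genes or the 3 CDK inhibitors with a promoter had a CHR word. The 16 members with CHR and NF-Y words had a median replicate 3 difference of 1.65 in EHE17 and 1.95 in EHE6. The 10 with an E2F word and no CHR word had 1.46 and 1.35, and the 14 with neither had 1.74 and 1.66. A word match describes letters in a window and is not a measured binding site.

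**Figure D3:**
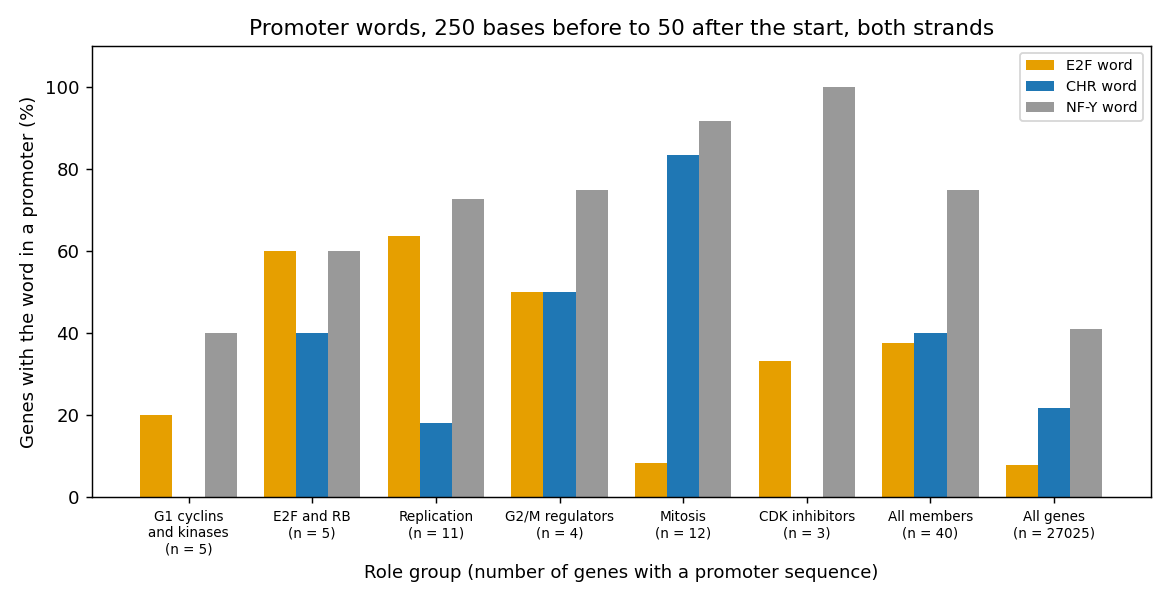
Share of genes (percent, axis from 0) with a promoter that holds a CHR word, an E2F word or the NF-Y word. Bars are given for each role group of members and for all 27025 genes of the RefSeq table. CHR words reach 83.3% in the mitotic group and E2F words 63.6% in the replication group.

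Among the G1 genes, the D-type cyclins differed from each other in direction. Ccnd1 had 1283 and 2493 CPM in the EHE26 libraries, 1440.5 CPM in EHE17 replicate 3 against 1125 and 1129 CPM in its replicates 1 and 2, and 1617 CPM in EHE6 replicate 3 against 1309 and 1557 CPM in its replicates 1 and 2. Ccnd1 (chr7:144929931-144939925, minus strand) encodes cyclin D1, and its replicate 3 value was above both others in each line by a small margin, with differences of 0.35 in EHE17 and 0.18 in EHE6. Levels of Ccnd2 were 478 and 328 CPM in EHE26, then 152 CPM (replicate 3) against 388 and 429 CPM (replicates 1 and 2) in EHE17, and 134 CPM (replicate 3) against 636 and 698 CPM (replicates 1 and 2) in EHE6. Ccnd2 (cyclin D2, chr6:127125162-127152193, minus strand) was lower in replicate 3, by 1.42 in EHE17 and 2.32 in EHE6 on the log2 scale, with replicates 1 and 2 within 0.14 of each other in both lines. Ccnd3 stood at 115 and 99.6 CPM in EHE26; EHE17 replicate 3 held 107 CPM, against 148 and 257 CPM in the other EHE17 libraries, and EHE6 replicate 3 held 87.6 CPM, against 231 and 189 CPM in the other EHE6 libraries. Ccnd3 (cyclin D3, chr17:47505051-47599691, plus strand) was below both other libraries in replicate 3 of each line, with differences of −0.87 in EHE17 and −1.25 in EHE6, and both EHE26 values lay below all 4 libraries numbered 1 and 2.

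Counted per kilobase of exon and summed over the D-type cyclins, Ccnd1 made up 81.0% and 92.0% of the total in EHE26. Its share was 91.5% in EHE17 replicate 3 against 80.4% and 76.2% in replicates 1 and 2, and 93.4% in EHE6 replicate 3 against 74.8% and 77.6%. Both replicate 3 shares were above those of the other libraries of their line.

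The kinases and E-type cyclins of G1 had smaller or less even differences. Cdk4, a D-cyclin kinase, had differences of −0.28 in EHE17 and −0.19 in EHE6, and Cdk6, its paralogue, 0.05 in EHE17 and −0.10 in EHE6. Cdk2 had 52.1 and 37.6 CPM in the EHE26 libraries, 81.7 CPM in EHE17 replicate 3 against 48.8 and 52.5 CPM in its replicates 1 and 2, and 70.4 CPM in EHE6 replicate 3 against 58.6 and 56.2 CPM in its replicates 1 and 2. Cdk2 (chr10:128697939-128705031, minus strand), the partner of cyclins E and A, was above both other libraries in each replicate 3, by 0.69 in EHE17 and 0.29 in EHE6. Levels of Ccne2 were 13.3 and 11.4 CPM in EHE26, then 24.4 CPM (replicate 3) against 6.24 and 7.21 CPM (replicates 1 and 2) in EHE17, and 18.8 CPM (replicate 3) against 20.6 and 13.0 CPM (replicates 1 and 2) in EHE6. Cyclin E2 (Ccne2, chr4:11191351-11204779, plus strand) was higher in EHE17 replicate 3 by 1.86, while in EHE6 replicate 3 lay between the other libraries. Ccne1 stood at 11.3 and 7.48 CPM in EHE26; EHE17 replicate 3 held 22.0 CPM, against 12.5 and 19.0 CPM in the other EHE17 libraries, and EHE6 replicate 3 held 6.05 CPM, against 27.4 and 14.1 CPM in the other EHE6 libraries. Ccne1 (cyclin E1, chr7:38097984-38107534, minus strand) was on opposite sides of replicates 1 and 2 in the 2 lines, with differences of 0.51 in EHE17 and −1.70 in EHE6. In EHE17 the difference was smaller than the gap between replicates 1 and 2, 0.60 in size. In EHE6 it was larger in size than the gap of 0.95. The difference between lines was not tested, and 15.8% of all genes lay on opposite sides in this way. The 8 G1 genes summed to 2327 CPM in EHE17 replicate 3, 0.963 times the mean of its other libraries, and to 2369 CPM in EHE6 replicate 3, 0.816 times.

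In the E2F and RB families the atypical repressors and Rbl1 were high in replicate 3. Levels of E2f8 were 39.9 and 62.1 CPM in EHE26, then 56.2 CPM (replicate 3) against 7.89 and 10.6 CPM (replicates 1 and 2) in EHE17, and 80.6 CPM (replicate 3) against 15.2 and 11.4 CPM (replicates 1 and 2) in EHE6. E2f8 (chr7:48866429-48881596, minus strand), a repressor that is itself switched on by E2F, was higher by 2.61 on the log2 scale in each line, and EHE26 lay above all 4 libraries numbered 1 and 2. Rbl1 had 61.8 and 72.0 CPM in the EHE26 libraries, 61.6 CPM in EHE17 replicate 3 against 16.6 and 14.3 CPM in its replicates 1 and 2, and 102 CPM in EHE6 replicate 3 against 23.5 and 19.3 CPM in its replicates 1 and 2. Rbl1 (chr2:157145893-157204534, minus strand), an RB family pocket protein, differed by 1.99 in EHE17 and 2.25 in EHE6. E2f2 stood at 7.08 and 6.12 CPM in EHE26; EHE17 replicate 3 held 12.8 CPM, against 7.68 and 20.4 CPM in the other EHE17 libraries, and EHE6 replicate 3 held 8.38 CPM, against 14.6 and 7.97 CPM in the other EHE6 libraries. E2f2 (chr4:136172394-136196057, plus strand), an activator E2F, differed from these: replicate 3 lay between the other libraries in both lines and both EHE26 values were below all 4 libraries numbered 1 and 2. E2f1, another activator, differed by 1.84 in EHE17 and 1.66 in EHE6, E2f7 by 1.05 in EHE17 and 2.22 in EHE6, and Rb1, the founding member of the RB family, by 0.35 in EHE17 and 1.16 in EHE6, where neighbouring genes overlap its exons.

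All 13 replication genes were above both other libraries in replicate 3 of EHE17 (30.4% of all genes) and of EHE6 (36.3%). Their median differences were 1.54 and 1.41. Rrm2 had 129.9 and 137 CPM in the EHE26 libraries, 141 CPM in EHE17 replicate 3 against 25.2 and 34.3 CPM in its replicates 1 and 2, and 223 CPM in EHE6 replicate 3 against 66.6 and 39.6 CPM in its replicates 1 and 2. Rrm2 (chr12:24708241-24714146, plus strand) encodes the regulated subunit of ribonucleotide reductase, and its differences were 2.26 in EHE17 and 2.12 in EHE6. Cdc6 stood at 21.7 and 18.5 CPM in EHE26; EHE17 replicate 3 held 40.4 CPM, against 6.25 and 11.1 CPM in the other EHE17 libraries, and EHE6 replicate 3 held 50.7 CPM, against 34.4 and 15.9 CPM in the other EHE6 libraries. Cdc6 (chr11:98907801-98923940, plus strand) loads the helicase at origins; it differed by 2.28 in EHE17 and 1.11 in EHE6, with EHE6 replicate 1 well above replicate 2. Levels of Mcm4 were 83.8 and 131 CPM in EHE26, then 129 CPM (replicate 3) against 46.4 and 42.4 CPM (replicates 1 and 2) in EHE17, and 109 CPM (replicate 3) against 90.1 and 62.1 CPM (replicates 1 and 2) in EHE6. Mcm4 (chr16:15623897-15637400, minus strand), a helicase subunit, had the smallest mean difference of the 13, 1.54 in EHE17 and 0.55 in EHE6. The other 5 helicase subunits, Mcm2, Mcm3, Mcm5, Mcm6 and Mcm7, ranged from 1.19 to 1.70 in EHE17 and from 0.97 to 1.69 in EHE6. The clamp Pcna differed by 1.68 in EHE17 and 1.67 in EHE6, the helicase loader Cdt1 by 1.39 in EHE17 and 1.19 in EHE6, thymidylate synthase Tyms by 1.73 in EHE17 and 1.36 in EHE6, and Rrm1, the large subunit of ribonucleotide reductase, by 1.42 in EHE17 and 1.42 in EHE6. Gins2, a subunit of the replicative helicase complex, differed by 1.62 in EHE17 and 1.64 in EHE6, but 67.3% of its exon bases overlap Gse1 on the other strand and the strand setting of the counts is not given in the sources used here.

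All 6 genes of the G2/M group were at least 1 higher in replicate 3 of both lines (4.96% of all genes). Their medians were 2.12 in EHE17 and 2.29 in EHE6. Ccnb1 stood at 127 and 122 CPM in EHE26; EHE17 replicate 3 held 143 CPM, against 18.3 and 40.4 CPM in the other EHE17 libraries, and EHE6 replicate 3 held 219 CPM, against 53.4 and 22.4 CPM in the other EHE6 libraries. Ccnb1 (chr13:100778650-100786570, minus strand) encodes cyclin B1, the main mitotic partner of Cdk1, and differed by 2.39 in EHE17 and 2.66 in EHE6. Ccnb2 had 133 and 104 CPM in the EHE26 libraries, 138 CPM in EHE17 replicate 3 against 17.7 and 54.7 CPM in its replicates 1 and 2, and 147 CPM in EHE6 replicate 3 against 35.9 and 12.3 CPM in its replicates 1 and 2. Ccnb2 (cyclin B2, chr9:70407692-70421547, minus strand) differed by 2.14 in EHE17 and 2.81 in EHE6, and its replicates 1 and 2 were themselves 1.63 apart in EHE17 and 1.54 apart in EHE6. Levels of Cdk1 were 128 and 134 CPM in EHE26, then 117 CPM (replicate 3) against 29.5 and 68.0 CPM (replicates 1 and 2) in EHE17, and 234 CPM (replicate 3) against 103 and 49.7 CPM (replicates 1 and 2) in EHE6. Cdk1 (chr10:69335146-69352938, minus strand), the mitotic kinase, had the smallest mean difference of the group, 1.39 in EHE17 and 1.71 in EHE6. Ccna2, cyclin A2 of S phase and G2, differed by 2.53 in EHE17 and 2.35 in EHE6; the transcription factor Foxm1 differed by 1.85 in EHE17 and 2.22 in EHE6, and Mybl2, which encodes B-MYB, by 2.10 in EHE17 and 1.45 in EHE6.

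Of the 13 mitotic genes, 13 in EHE17 (9.94% of all genes) and 12 in EHE6 (14.8%) were at least 1 higher, with medians of 2.04 and 2.14. Levels of Birc5 were 66.6 and 54.4 CPM in EHE26, then 76.2 CPM (replicate 3) against 10.8 and 20.4 CPM (replicates 1 and 2) in EHE17, and 128 CPM (replicate 3) against 31.2 and 13.7 CPM (replicates 1 and 2) in EHE6. Birc5 (chr11:117849251-117855743, plus strand), survivin, is a subunit of the chromosomal passenger complex and differed by 2.36 in EHE17 and 2.63 in EHE6. Kif11 had 103 and 91.7 CPM in the EHE26 libraries, 104 CPM in EHE17 replicate 3 against 19.6 and 18.2 CPM in its replicates 1 and 2, and 191 CPM in EHE6 replicate 3 against 48.2 and 28.2 CPM in its replicates 1 and 2. For Kif11 (chr19:37376403-37421859, plus strand), whose promoter is printed above, the differences were 2.46 in EHE17 and 2.37 in EHE6, with replicates 1 and 2 of EHE17 within 0.11 of each other. Cdc20 stood at 152 and 112 CPM in EHE26; EHE17 replicate 3 held 137 CPM, against 28.6 and 95.9 CPM in the other EHE17 libraries, and EHE6 replicate 3 held 148 CPM, against 114 and 49.3 CPM in the other EHE6 libraries. Cdc20 (chr4:118432901-118437352, minus strand), the activator of the anaphase-promoting complex, had the smallest mean difference, 1.39 in EHE17 and 0.98 in EHE6, less than the gaps of 1.75 and 1.20 between replicates 1 and 2. The remaining 10 ranged from 1.61 to 2.78 in EHE17 and from 1.39 to 2.73 in EHE6. Among them the checkpoint kinase Bub1 had the largest EHE17 difference, 2.78, and the centromeric histone Cenpa the largest EHE6 difference, 2.73. The proliferation marker Mki67 differed by 1.96 in EHE17 and 1.86 in EHE6, and Top2a, which untangles chromosomes, by 2.19 in EHE17 and 2.46 in EHE6.

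The CDK inhibitors were higher in replicate 3 along with the genes of division. Cdkn1b had 195 and 162 CPM in the EHE26 libraries, 101 CPM in EHE17 replicate 3 against 55.5 and 61.8 CPM in its replicates 1 and 2, and 214 CPM in EHE6 replicate 3 against 29.0 and 34.8 CPM in its replicates 1 and 2. Cdkn1b (chr6:134920401-134925513, plus strand), a CIP/KIP inhibitor of Cdk2, differed by 0.79 in EHE17 and 2.75 in EHE6. Cdkn2c stood at 155 and 101 CPM in EHE26; EHE17 replicate 3 held 68.0 CPM, against 9.51 and 23.0 CPM in the other EHE17 libraries, and EHE6 replicate 3 held 83.9 CPM, against 12.9 and 7.86 CPM in the other EHE6 libraries. Cdkn2c (chr4:109660876-109667189, minus strand), an INK4 inhibitor, differed by 2.20 in EHE17 and 3.05 in EHE6. Levels of Cdkn2d were 66.1 and 51.0 CPM in EHE26, then 23.1 CPM (replicate 3) against 4.90 and 9.55 CPM (replicates 1 and 2) in EHE17, and 60.9 CPM (replicate 3) against 7.95 and 4.80 CPM (replicates 1 and 2) in EHE6. Cdkn2d (chr9:21288410-21291407, minus strand), also of the INK4 class, differed by 1.75 in EHE17 and 3.30 in EHE6. For each of the 3, EHE26 lay above all 4 libraries numbered 1 and 2 (22.0% of all genes). Both EHE26 libraries also lay above EHE17 replicate 3 for all 3 (36.8%). Against EHE6 replicate 3, both EHE26 libraries were higher for Cdkn2c only (37.1% of all genes).

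**Figure D4:**
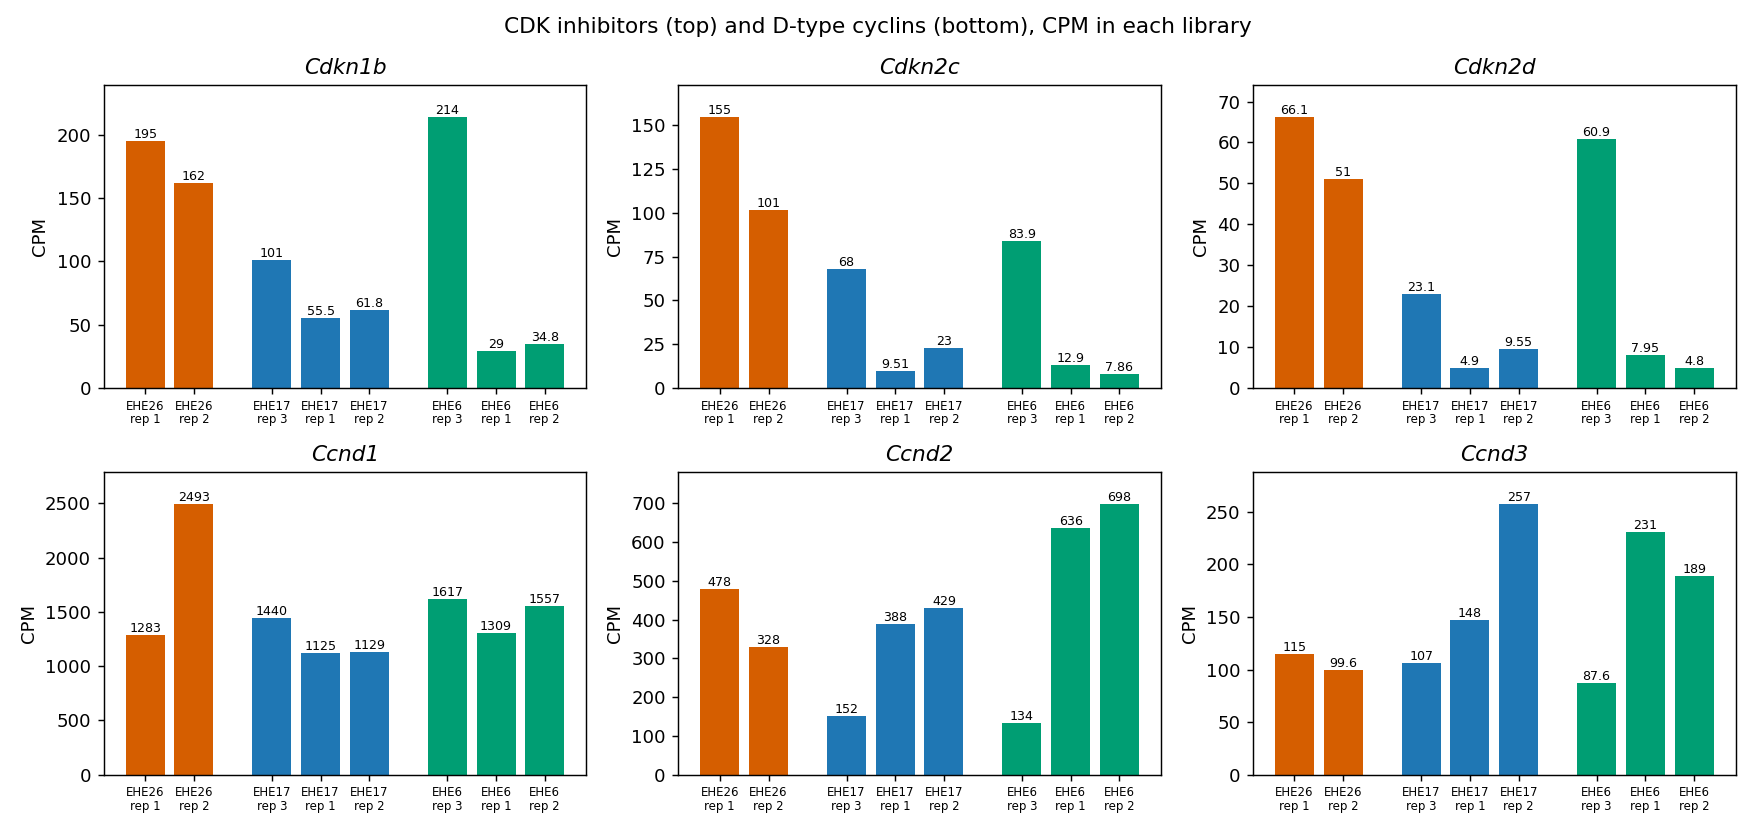
CPM of the D-type cyclins and the CDK inhibitors in each library (1 bar per library, axes from 0; EHE26, then EHE17 and EHE6 with replicate 3 left of replicates 1 and 2). Ccnd2 is lower in both replicate 3 libraries (152 CPM in EHE17 and 134 CPM in EHE6) and the inhibitors are higher in both.

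Other cell cycle inhibitors did not share this direction. Cdkn2b, an INK4 inhibitor known from TGF-beta responses, had 64.6 and 61.3 CPM in EHE26, 88.0 CPM in EHE17 replicate 3 against 444 and 482 CPM, and 1.58 CPM in EHE6 replicate 3 against 333 and 335 CPM. It was lower in both replicate 3 libraries and in EHE26 than in the other 4 libraries. The p53 target Cdkn1a was 164 CPM in EHE17 replicate 3, between its other libraries at 124 and 198 CPM, and 168 CPM in EHE6 replicate 3, below 283 and 267 CPM. Cdkn2a was at most 8.64 CPM in any library and 0.0210 CPM in EHE6 replicate 3, and Cdkn1c was at most 8.29 CPM.

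Cell cycle genes outside the 49 were read from 3 further lists. Of 37 other mitosis genes, 35 in EHE17 (9.94% of all genes) and 33 in EHE6 (14.8%) were at least 1 higher in replicate 3. In both lines 32 were (4.96% of all genes). The medians were 2.22 and 2.13. Spc25, of the kinetochore NDC80 complex, differed by 3.27 in EHE17 and 2.56 in EHE6, Nuf2, of the same complex, by 2.82 in EHE17 and 2.90 in EHE6, and the phosphatase Cdc25c by 2.27 in EHE17 and 3.24 in EHE6. Of 29 other replication genes, 23 in EHE17 (9.94% of all genes) and 21 in EHE6 (14.8%) were at least 1 higher. In both lines 18 were (4.96%). Among them, primase subunit Prim1 differed by 2.68 in EHE17 and 2.71 in EHE6. The Cdt1 inhibitor Gmnn differed by 2.93 in EHE17 and 2.39 in EHE6, and the clamp loader subunit Dscc1 by 3.16 in EHE17 and 1.94 in EHE6. Of 18 other G1/S genes, 4 in EHE17 (9.94% of all genes) and 3 in EHE6 (14.8%) were at least 1 higher and 1 in EHE17 (21.2%) and 3 in EHE6 (27.4%) at least 1 lower, with medians of 0.25 and 0.29; Lin54, a subunit of the complex that binds CHR elements, differed by 1.60 in EHE17 and 1.58 in EHE6. Across the 49 members the differences in the 2 lines had r = 0.80 and rho = 0.67. Over all tested genes, departures of replicate 3 from the line mean correlated at 0.57 between the 2 lines. Members share libraries, so these values are a description.

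Other measures moved with replicate 3, and their part in the result was not tested. The summed level of the 13 mitochondrially encoded genes was 0.467 times that of replicates 1 and 2 in EHE17 and 0.448 times in EHE6. Endothelial markers were below both other libraries in replicate 3 for 13 of 15 genes in EHE17 (41.3% of all genes) and 15 of 15 in EHE6 (47.0%). Markers of other cell types moved with it in both directions.

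In EHE17, smooth muscle and pericyte markers were below both other libraries in replicate 3 for 8 of 8 genes, epithelial markers for 7 of 8 and fibroblast markers for 8 of 10. Of all tested genes, 41.3% lay below both in this line. The smooth muscle and pericyte list summed to 7.95 CPM against 20.9 and 63.4 CPM, with Myh11, Cnn1 and Des at 0 in replicate 3 alone of the EHE17 libraries. The epithelial list summed to 1.16 CPM against 19.9 and 30.3 CPM, with Epcam, Cdh1 and Cldn4 at 0 in replicate 3 alone. The fibroblast list summed to 1803 CPM against 1111 and 1609 CPM, and Thy1, a surface protein of several cell types, made up 1767 CPM of it against 933 and 1347 CPM; Lum and Postn were at 0 in replicate 3 alone.

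In EHE6 replicate 3, 6 of 8 epithelial, 8 of 10 fibroblast and 5 of 8 smooth muscle and pericyte markers were below both other libraries, and the others of each list were above both. Among all tested genes of this library, 47.0% were below both and 36.3% above both. The epithelial list summed to 105 CPM against 39.3 and 23.8 CPM: the keratins Krt18 and Krt19 were higher, Krt18 at 89.2 CPM against 7.0 and 4.30 CPM and Krt19 at 14.7 CPM against 0.148 and 0.395 CPM, while Epcam, Cdh1, Krt5 and Cldn4 were at 0. The fibroblast list summed to 277 CPM against 445 and 406 CPM; Pdgfra, a growth factor receptor of mesenchymal cells, was higher at 252 CPM against 3.87 and 5.21 CPM, and Thy1 was lower at 8.80 CPM against 398 and 349 CPM. The smooth muscle and pericyte list summed to 223 CPM against 673 and 283 CPM. Within it smooth muscle actin Acta2 was lower, at 15.1 CPM against 659 and 268 CPM, and the pericyte markers were higher: Rgs5 was at 183 CPM against 8.23 and 9.92 CPM, Pdgfrb at 22.0 CPM against 1.41 and 1.57 CPM, and Cspg4 at 2.02 CPM against 0.391 and 0.607 CPM.

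The leukocyte list summed to 68.3 CPM in EHE17 replicate 3 against 25.7 and 29.6 CPM, and to 28.6 CPM in EHE6 replicate 3 against 18.2 and 27.8 CPM. Of its 6 tested genes, 3 in EHE17 (30.4% of all genes) and 5 in EHE6 (36.3%) were above both other libraries, and 2 (41.3%) and 0 (47.0%) were below both. Cd68, a lysosomal protein abundant in macrophages, was at 29.5 CPM in EHE17 replicate 3 against 5.68 and 4.06 CPM, and the pan-leukocyte Ptprc was at most 1.49 CPM in any library, in EHE6 replicate 3.

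Between the lines, none of the 49 members passed the test in any of the 3 comparisons. The test was edgeR's quasi-likelihood test over all 18882 genes, and calls needed an adjusted p below 0.05 together with a log2 fold change of at least 1 in size. The share of all genes called was 1.08% for EHE26 against EHE17, 1.26% for EHE26 against EHE6 and 0.143% for EHE17 against EHE6. DESeq2 also called 0 members in each. Of the 18882 genes it called 1685 for EHE26 against EHE17 and 1585 for EHE26 against EHE6. For EHE17 against EHE6 it called 397. At an unadjusted p under 0.05, 1 member passed in EHE26 against EHE17 (16.6% of all genes), 0 in EHE26 against EHE6 (15.9%) and 0 in EHE17 against EHE6 (6.90%). That member was Cdk4, with 309 and 302 CPM in EHE26 against 440.0, 419 and 676 CPM in EHE17, a log2 fold change of −0.74 ± 0.31 (SE) and an adjusted p of 0.284. Both EHE26 values were below all 3 EHE17 values. A fit with the replicate number as a further term called 16 members in EHE26 against EHE17, all higher (4.86% of all genes were called higher). It called 8 in EHE26 against EHE6, all higher (3.57%), and 0 in EHE17 against EHE6. As EHE26 has no replicate 3, the replicate 3 term of that fit rests on EHE17 and EHE6 alone.

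The members' median log2 fold change was 0.60 for EHE26 against EHE17 (all genes −0.11), 0.12 for EHE26 against EHE6 (all genes −0.11) and −0.52 for EHE17 against EHE6 (all genes −0.03). By role, the medians for EHE26 against EHE17 were 1.93 for the CDK inhibitors, 0.82 for mitosis, 0.82 for G2/M, 0.54 for E2F and RB, 0.29 for replication and −0.24 for G1. For EHE26 against EHE6 they were 1.25 for the CDK inhibitors, 0.30 for mitosis, 0.19 for G2/M, 0.08 for E2F and RB, −0.06 for replication and −0.44 for G1. The CDK inhibitors had the largest fold changes in the higher direction, with large errors: Cdkn2d had 2.23 ± 1.05 (SE) for EHE26 against EHE17 and 1.25 ± 1.04 for EHE26 against EHE6, and Cdkn2c had 1.93 ± 1.06 and 1.88 ± 1.06. Cdkn1b had 1.29 ± 0.80 and 0.95 ± 0.80. Standard errors of members ran from 0.24 to 1.06 for EHE26 against EHE17. Both EHE26 libraries lay outside all EHE17 libraries for 7 members in the higher direction (18.7% of all genes) and 3 in the lower (20.3%). Outside all EHE6 libraries they lay for 1 member in the higher direction (16.0%) and 3 in the lower (15.3%). No member had EHE17 wholly above EHE6 (7.25% of all genes did) or wholly below it (4.94%).

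**Figure D5:**
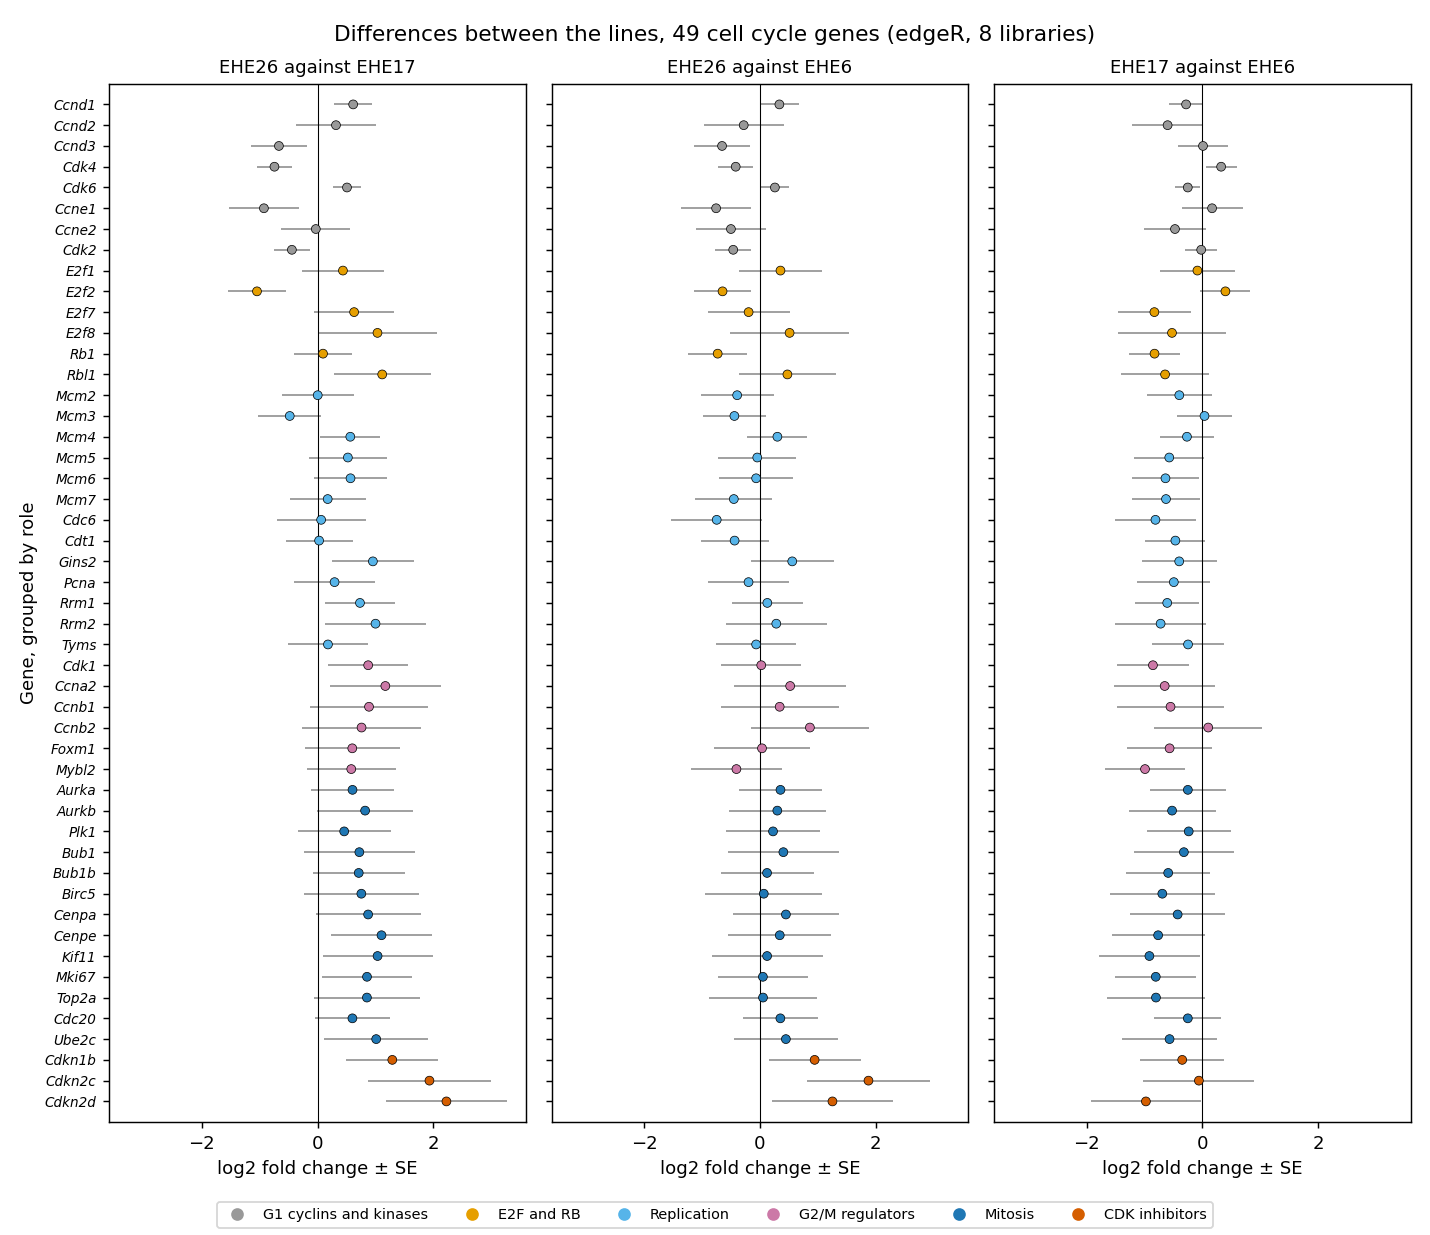
Log2 fold change of each member (points, by role) with SE bars for EHE26 against EHE17, EHE26 against EHE6 and EHE17 against EHE6. No member was called; the CDK inhibitors lie highest in both comparisons with EHE26.

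The line comparisons depended on the replicate 3 libraries. With libraries numbered 1 and 2 alone, 25 members were called higher in EHE26 against EHE17 (8.46% of all genes were) and 16 in EHE26 against EHE6 (9.13%), and 0 were called lower in either (13.4% and 13.6% of all genes were). The 2 comparisons share the EHE26 libraries. The libraries left out here were those in which most members were high. These calls, errors and adjusted p-values therefore depend on that choice and are a description of the remaining libraries. All 3 CDK inhibitors were among the calls in both: Cdkn1b was 1.59 ± 0.25 (SE, adjusted p of 0.00483) and 2.49 ± 0.25 (adjusted p of 0.000949) by edgeR. Of the 13 mitotic genes 9 and 5 were called, of the 13 replication genes 5 and 1, and of the G1 genes none; Ccna2 was 2.51 ± 0.35 and 1.73 ± 0.34, and Top2a 1.97 ± 0.33 and 1.33 ± 0.33. EHE17 against EHE6 had 0 calls (0.775% of all genes). With replicate 3 as the only library of EHE17 and of EHE6, 0 members were called in any comparison, the lone libraries being assumed to vary like the EHE26 pair; the share of all genes called was 3.58% for EHE26 against EHE17, 1.95% for EHE26 against EHE6 and 2.77% for EHE17 against EHE6. Leaving out EHE6 replicate 3 alone gave 3 calls for EHE26 against EHE6, the CDK inhibitors Cdkn1b, Cdkn2c and Cdkn2d (4.39% of all genes were called higher), and 1 call for EHE26 against EHE17, Cdkn1b (3.94%). Leaving out EHE17 replicate 3 alone gave 0 calls for EHE26 against EHE17 and 0 for EHE26 against EHE6. The Cdkn1b call for EHE26 against EHE17 thus arose on removal of an EHE6 library, in a fit where the lines share an estimate of spread.

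Set beside single libraries, EHE26 lay above all 4 EHE17 and EHE6 libraries numbered 1 and 2 for 29 members (22.0% of all genes) and below them for 4 (28.3%), namely Ccnd3, Cdk4, Ccne1 and E2f2. Both EHE26 libraries were below EHE17 replicate 3 for 28 members (38.0% of all genes) and above it for 8 (36.8%), and below EHE6 replicate 3 for 40 (37.6%) and above it for 5 (37.1%). For EHE17 against EHE6 the median turned with replicate 3: it was −1.21 without EHE17 replicate 3, 0.32 without EHE6 replicate 3 and −0.43 with libraries numbered 1 and 2 alone.

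Reads of overlapping genes limit a few members. Of the 49, 18 share exon bases with another gene, and 7 share over 10% of them with 1 other gene, in each case on the opposite strand: Ccnd1, Cdk4, Ccne2, E2f8, Gins2, Ccna2 and Ube2c. Rb1 shares 8.11% of its exon bases with Rcbtb2 and 6.78% with Lpar6, also on the opposite strand, and the highest counts of these neighbours, 5666 and 14660, exceed the lowest Rb1 count of 714. For Ube2c the highest count of its neighbour Tnnc2 was 0. For Ccnd1 the highest count of its neighbour LTO1 was 2367, against a lowest Ccnd1 count of 69740. Apart from Ube2c, reads of these members and of their neighbours may not be separated, since the strand setting of the counting is not given in the sources used here.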

How the data were processed

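The authors deposited raw counts per Ensembl gene for each of the 8 libraries. Per the labels' protocols, total RNA came from an RNeasy Mini extraction, and polyA-selected libraries from the NEBNext Ultra II kit. Reads were aligned with HISAT2 to mm10, per the submitters' processing notes; the version, counting tool and strand setting are not given in the sources used here. The file of each sample equals its series column (8 of 8). Symbols, positions and exon lengths come from GENCODE M21, which holds 55141 of 55401 identifiers.

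Counts were scaled with TMM factors, filtered with filterByExpr by line (18882 genes) and tested with edgeR 4.0.16 in R 4.3.3 (quasi-likelihood, line as the only term, all 8 libraries, Benjamini-Hochberg over all tested genes). The common biological coefficient of variation was 0.600. Replicate 3 was described on log2 CPM with a prior count of 2. Alternatives were RLE factors, DESeq2 1.42.0, no filter, the replicate block, each library left out, and libraries numbered 1 and 2 alone. The members, lists and tests were chosen with earlier results of these data known. Members with values in every library are, per role group, the 2 with the largest and the 1 with the smallest mean replicate 3 difference, every D-type cyclin and every CDK inhibitor. Ccne1, Cdk4, the single marker genes and the 6 promoters shown were chosen after their values or words were seen.

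Departures from the line mean of libraries with the same number in EHE17 and EHE6 correlated at 0.13, 0.18 and 0.57 across genes. All exceeded 0.1, the limit used for reading numbers as pairing. However, EHE6 replicate 1 correlated at 0.54 with EHE17 replicate 2, and EHE6 replicate 2 at 0.62 with EHE17 replicate 1. Why these crossed values exceeded the same-number values of 0.13 and 0.18 was not tested. Replicate 3 also stood apart in both lines, so replicates 1 and 2 tend to depart from the line mean together whatever their numbers. The limit therefore cannot decide whether the numbers of these 2 lines pair. EHE26 shares only 2 numbers, with correlations of −0.06 and −0.11 to EHE17 and 0.18 and −0.10 to EHE6, so its numbers were not read as pairing.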

Additional observations from a re-analysis of the deposited data

Results flagged for a closer look

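Ccne1, which encodes cyclin E1, lay on opposite sides of replicates 1 and 2 in the 2 lines: replicate 3 was 0.51 above their mean on the log2 CPM scale in EHE17 and below it in EHE6, with a difference of −1.70. In EHE17 the difference was smaller than the gap between replicates 1 and 2, 0.60 in size. In EHE6 it was larger in size than the gap of 0.95. The difference between the lines was not tested. Of all tested genes, 15.8% lay on opposite sides in the same way.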

How the results depend on the processing

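Counts of called members kept their size under RLE factors, DESeq2 and no filter on low counts. With the replicate block, 16 members were called in EHE26 against EHE17 (4.86% of all genes were called higher) and 8 in EHE26 against EHE6 (3.57%), all higher, and 0 in EHE17 against EHE6, where the block changed no call. EHE26 has no replicate 3 and its numbers were not read as pairing. The replicate 3 term of the block thus rests on EHE17 and EHE6 alone. The block calls with EHE26 are therefore no check separate from leaving replicate 3 out. With libraries numbered 1 and 2 alone the counts were 25, 16 and 0. Leaving out each library in turn gave 0 to 1 calls for EHE26 against EHE17, 0 to 3 for EHE26 against EHE6 and 0 in all cases for EHE17 against EHE6. The member median then ran from 0.33 to 1.34, from −0.30 to 0.90 and from −1.21 to 0.32. The median difference of replicate 3 ran from 1.23 to 2.05 in EHE17 and from 1.26 to 2.12 in EHE6 when replicate 1 or 2 was left out. The lowest member count was 279, with a counting error of 5.99%. The 2 or 3 libraries per line limit the line comparisons.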
